A study of Mus musculus with 10 samples.

Results

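The proteasome subunit genes of the mouse were followed across 10 jejunal RNA samples. The genes were those whose symbol is Psma, Psmb, Psmc, Psmd or Psme followed by a number, without the interferon-induced subunits Psmb8, Psmb9 and Psmb10. Of the 12393 genes with 1 symbol on the Affymetrix mouse 430A array, 38 met this rule, through 71 probe sets, and the probe set with the highest mean over the 10 arrays stood for each gene. The samples were whole jejunum, the middle stretch of the small intestine, of male mice at postnatal day 30. Per the sample titles, 5 arrays came from mice lacking Klf9, a zinc finger transcription factor of the Kruppel-like family, and 5 from wild type mice. A further label of knockout replicate 1 names both genotypes. The design text assigns each array to its own animal, while the labelling protocol has several targets made from each RNA pool, so the spread between arrays of a group, on which all p-values rest, may in part be technical. Strain, housing and the part of Klf9 removed are not given in the sources used here.

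The proteasome is the cell's main machine for breaking down proteins tagged with ubiquitin. Its core particle is a barrel of alpha rings outside and beta rings inside, and Psmb5, Psmb6 and Psmb7 encode the beta subunits that cut peptide bonds. The regulatory particle caps the barrel. Its base holds a ring of ATPases (the Psmc genes), which unfold substrates, and its lid removes ubiquitin. Interferon replaces the 3 cutting subunits with Psmb8, Psmb9 and Psmb10, giving the immunoproteasome. Of the 38 genes, 14 encode the core particle (7 alpha and 7 beta subunits) and 17 the regulatory particle (6 ATPases, 3 other base subunits and 8 lid subunits). The rule also took in 3 activator genes (Psme1, Psme3 and Psme4), 3 assembly factors (Psmd5, Psmd9 and Psmd10) and Psma8, the testis form of an alpha subunit. "Constitutive" therefore describes the particle subunits and not the whole set, since Psme1 responds to interferon and Psma8 is restricted to germ cells. Psme2, the partner of Psme1, shares its probe set with Psme2b and was not a member.

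On 2 arrays Klf9 went against the label. Klf9 itself had a scaled signal of 944, 485, 339.6, 526 and 451 on the arrays labelled knockout replicates 1 to 5 and 551, 1319.8, 1038, 1249 and 964 on those labelled wild type. The array labelled knockout replicate 1 was thus close to wild type replicates 2 to 5, and the array labelled wild type replicate 1 close to knockout replicates 2 to 5. The log2 difference was -0.86 ± 0.25 (SE; exact two-sided permutation p = 0.0159), and -1.26 without both arrays labelled replicate 1. Klf9 itself singled out these 2 arrays, so the second value is not independent of the choice. Every direction below rests on labels that Klf9 contradicts on these 2 arrays, and the values below are with all 10 arrays unless they are said to be without these 2. Median signals lay between 171 and 194, and the 3′ to 5′ signal ratio of the Gapdh control, a sign of RNA quality, between 0.811 and 1.08. Markers of absorptive enterocytes were among the brightest probe sets, with mean signals from 9644 (Lct) to 26702 (Apoa1), while the colon gene Car1 (12.3) and the ileal bile acid transporter Slc10a2 (20.2) were near the floor of the array. The second marker on each of these lists was not dim. The colon marker Slc26a2 had a mean signal of 2268, and Fabp6, the ileal bile acid binding protein, had 10006 on wild type replicate 3 against 176 to 1669 on the other 9 arrays, so that array stood apart in an ileal marker. In whole tissue, fewer cells of a type and less RNA per cell cannot be told apart.

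No proteasome gene differed between the labelled groups past the threshold. In limma, 0 of the 38 had an adjusted p under 0.05, against 0% of all 13580 probe sets tested. An unadjusted p under 0.05 was found for 2 members, Psmb4 and Psmc3, both higher on the arrays labelled knockout, which is 2 of 38 against 7.89% of all probe sets tested (3.65% higher and 4.24% lower) and 8.87% of those with signals like the particle subunits. Across the family the differences were small and mostly of the same sign. In the knockout group 30 of the 38 were above wild type and 8 below it, the median log2 difference being 0.079 within a range of -0.14 to 0.33. Over all probe sets tested 48.6% were higher and the median was -0.0054. Among the 4598 probe sets in the signal range of the particle subunits (619.7 to 4989), 54.1% were higher, with a median of 0.016. The 38 genes were measured on the same 10 arrays, so their shared sign is not 38 separate observations. In no member were the groups without overlap, against 1.55% of all probe sets tested. The 95% interval of the difference lay within a 1.5-fold change in either direction for 36 of the 38 genes, the others being Psma5 and Psmc5. The 36 include Psma8, at -0.54 to 0.27, with mean signals of 19.3 on knockout and 26.4 on wild type arrays. The constant added before log2 narrows the interval of so dim a probe set, so a 1.5-fold change of Psma8 is not excluded. The count is for all 10 arrays. It may not hold without both arrays labelled replicate 1, where Psmb4 differed by 0.37 ± 0.10 (SE). Without both arrays labelled replicate 1 the median over the 38 genes was 0.15. Leaving out 1 array at a time gave 1 to 6 members with an unadjusted p under 0.05. There were 6 without knockout replicate 1, 5 without knockout replicate 4, 4 without wild type replicate 2 or 3, and 1 without any of knockout replicates 2, 3 and 5 and wild type replicates 4 and 5. Of the 38 genes 37 passed the filter on dim probe sets. Psma8 did not, with a mean signal of 22.8.

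**Figure D1:**
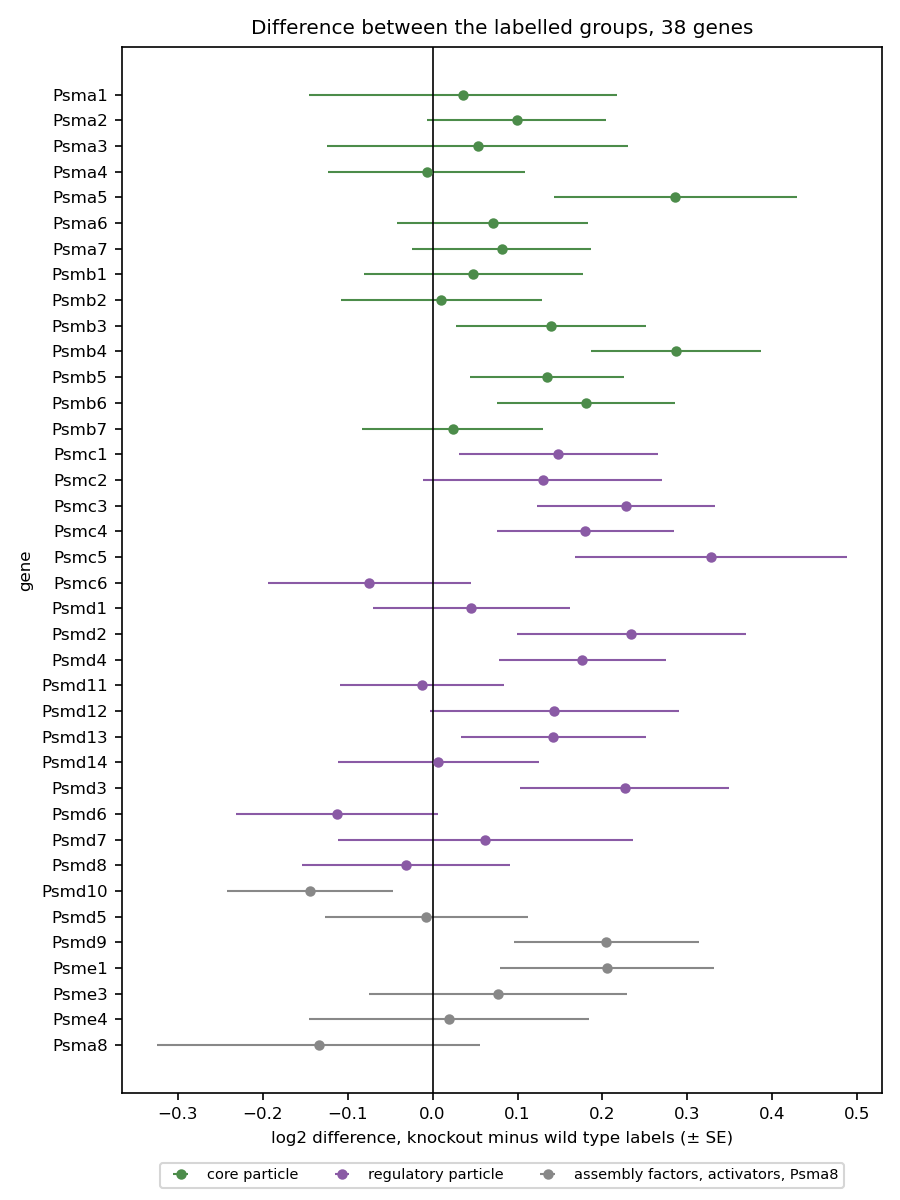
Log2 difference between the arrays labelled knockout and wild type for each of the 38 genes (x axis), with bars of ± 1 SE from limma, coloured by particle. Most points lie to the right of 0, between -0.14 and 0.33, and many bars reach or cross 0.

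The alpha ring frames the gate of the barrel. Of its 7 genes 6 were higher and 1 lower, and their mean differed by 0.088 ± 0.12 (SE over arrays, n = 5 each). That mean was 0.027 without knockout replicate 3, 0.045 without knockout replicate 5 and 0.053 without wild type replicate 1. It was 0.15 without knockout replicate 1, 0.13 without knockout replicate 4 and 0.15 without wild type replicate 3. It was 0.11, with 5 of 7 genes higher, without both arrays labelled replicate 1. Psma5 had the highest difference of the ring, with signals of 2265, 2628, 3369.7, 2203 and 2776 on the arrays labelled knockout replicates 1 to 5 and 1978, 2598, 2572, 1853 and 1822 on those labelled wild type. Knockout replicate 3 stood highest, and wild type replicates 2 and 3 lay within the knockout range. The means were 2648 ± 469.9 against 2164 ± 388 (SD, n = 5 each), a log2 difference of 0.29 ± 0.14 (SE) with a limma adjusted p of 0.651 and a 95% interval of -0.022 to 0.59. Psma4 had the lowest, with signals of 3697, 3903, 4659.8, 3571 and 4157 on the knockout arrays and 3691, 3859, 5097, 3605 and 3909 on the wild type arrays. The groups overlapped almost wholly, wild type replicate 3 being the brightest array, and the difference was -0.0071 ± 0.12 (SE). The remaining alpha genes, Psma1, Psma2, Psma3, Psma6 and Psma7, differed by 0.036 to 0.099. Psma1 and Psma3 varied most between arrays, with pooled SDs within groups of 0.34 and 0.33 on the log2 scale, against a median of 0.18 over the 38 genes.

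The beta ring carries the cutting sites. All 7 of its genes were higher on the arrays labelled knockout by some amount, with a mean difference of 0.12 ± 0.062 (SE over arrays). Without both arrays labelled replicate 1, 5 of the 7 were higher, Psmb1 (-0.033) and Psmb2 (-0.046) being lower, and the mean was 0.10. Psmb4, a non-catalytic beta subunit, had the lowest unadjusted p of the family. Its signals were 3770.0, 4243, 4682, 3705 and 4312 on the arrays labelled knockout replicates 1 to 5 and 3877, 3352, 3294, 3232 and 3162 on those labelled wild type. All 5 arrays labelled knockout lay above the wild type mean, but wild type replicate 1 was brighter than knockout replicates 1 and 4. The means were 4142 ± 406 against 3384 ± 285 (SD, n = 5 each), and the log2 difference was 0.29 ± 0.10 (SE), with an unadjusted limma p of 0.0126 and an adjusted p of 0.511. The exact two-sided permutation test gave p = 0.0238. Without both arrays labelled replicate 1 the difference was 0.37, with a limma adjusted p of 0.314.

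None of the 3 cutting subunits had an unadjusted limma p under 0.05, though Psmb5 and Psmb6 differed by more than the family median of 0.079. Psmb5, of the chymotrypsin-like site, had signals of 2457, 2749, 2799, 2794 and 3022 on the knockout arrays and 2397, 2558, 2629.8, 2631 and 2339.9 on the wild type arrays. On 4 of the 5 knockout arrays it was above every wild type array, and the difference was 0.13 ± 0.091 (SE), with a 95% interval of -0.061 to 0.33. Psmb6, of the caspase-like site, had signals of 2700.0, 2615, 2660.3, 2336 and 3155 on the knockout arrays and 2181, 2408, 2641, 2487 and 2116 on the wild type arrays. Knockout replicate 5 was highest and wild type replicate 5 lowest, and the difference was 0.18 ± 0.10 (SE). Psmb7, of the trypsin-like site, had signals of 4966, 4977, 5341, 4442 and 5368 on the knockout arrays and 4792, 5093, 6035, 4546 and 4324 on the wild type arrays. The brightest array was wild type replicate 3, so that no knockout array exceeded the wild type range, and the difference was 0.024 ± 0.11 (SE). The limma adjusted p-values of Psmb5, Psmb6 and Psmb7 were 0.736, 0.688 and 0.977. Psmb2, the lowest of the ring, had signals of 1989, 1616, 2359.5, 1717 and 1911 on the knockout arrays and 1683, 2238, 1789, 1889 and 1886 on the wild type arrays. Neither group stood higher, and the difference of 0.010 ± 0.12 (SE) changed sign without both arrays labelled replicate 1 (-0.046). Psmb1 and Psmb3 differed by 0.048 and 0.14.

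**Figure D2:**
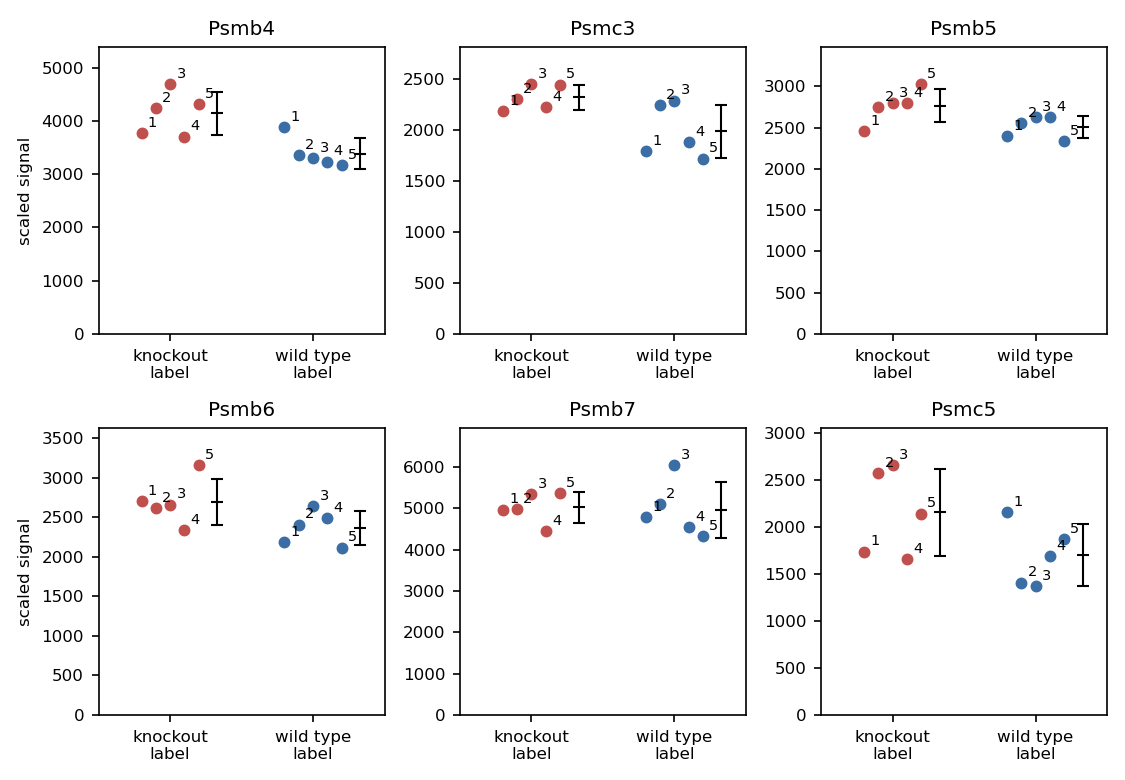
Scaled signal (y axis, linear from 0) of 6 subunits on each array, numbered by replicate label, with the mean and SD of each labelled group beside the points. Psmb4 and Psmc3 have all knockout points above the wild type mean, and Psmb7 and Psmc5 overlap broadly.

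Of the 6 base ATPase genes 5 were higher and 1 lower, with a mean of 0.16 ± 0.088 (SE over arrays), and 0.22 without both arrays labelled replicate 1. Without knockout replicate 3 the mean was 0.10. Psmc3 had signals of 2182, 2302, 2445, 2226 and 2443 on the arrays labelled knockout replicates 1 to 5 and 1792, 2244, 2287, 1882 and 1718 on those labelled wild type. The knockout arrays kept to a narrow range, while wild type replicates 2 and 3 lay inside it and wild type replicates 1, 4 and 5 below. The means were 2319.5 ± 121 against 1985 ± 264 (SD, n = 5 each) and the difference was 0.23 ± 0.10 (SE), with an unadjusted limma p of 0.0481, an adjusted p of 0.627 and an exact two-sided permutation p of 0.0635. Psmc5 had the highest difference of the whole family, 0.33 ± 0.16 (SE), on signals of 1740.1, 2580.2, 2659, 1664 and 2146 on the knockout arrays and 2159, 1410.1, 1374, 1689 and 1876 on the wild type arrays. Knockout replicates 2 and 3 were the brightest, and wild type replicate 1 was brighter than knockout replicates 1, 4 and 5. Its limma adjusted p was 0.644, and without both arrays labelled replicate 1 the difference was 0.49 (limma unadjusted p = 0.00931, adjusted p = 0.373). Psmc6 was the 1 ATPase gene that was lower, at -0.074 ± 0.12 (SE), with signals of 1528, 1431, 1710.3, 1447 and 1815 on the knockout arrays and 1534, 1547, 2179, 1623 and 1526 on the wild type arrays. Wild type replicate 3 stood above all other arrays, and without it the difference was 0.020. Psmc1, Psmc2 and Psmc4 differed by 0.15, 0.13 and 0.18.

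The 3 other base subunits, which bind ubiquitin and its carriers, were all higher by some amount, with a mean difference of 0.15 ± 0.087 (SE over arrays) and 0.20 without both arrays labelled replicate 1. Without knockout replicate 3 the mean was 0.088. Psmd2, a scaffold of the base, had signals of 1875, 2539, 3070.3, 2564 and 2792 on the knockout arrays and 1978, 2282, 2620.0, 1962 and 1971 on the wild type arrays. Knockout replicate 1 was the dimmest of the 10 arrays and knockout replicate 3 the brightest. The difference was 0.23 ± 0.13 (SE) with a limma adjusted p of 0.688, and 0.31 (unadjusted p = 0.024, adjusted p = 0.439) without both arrays labelled replicate 1. Psmd1, the other scaffold, had signals of 1136, 1217, 1748, 1264 and 1311 on the knockout arrays and 1207, 1341, 1259.9, 1353 and 1232 on the wild type arrays. Knockout replicate 3 lay above the wild type range and knockout replicate 1 below it, and the difference was 0.046 ± 0.12 (SE). Psmd4, a ubiquitin receptor, differed by 0.18 ± 0.098 (SE).

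The lid genes went both ways. Of its 8 genes 5 were higher and 3 lower, with a mean of 0.053 ± 0.088 (SE over arrays), their median being 0.034. Leaving out 1 array moved the mean between -0.0058 (without knockout replicate 3) and 0.095, and it was 0.10, with 6 of 8 genes higher, without both arrays labelled replicate 1. It was 0.095 without knockout replicate 1, 0.095 without knockout replicate 4, 0.025 without knockout replicate 5 and 0.015 without wild type replicate 5. Psmd3 was highest, with signals of 1231, 1482, 1729.6, 1165 and 1442 on the knockout arrays and 1267, 1168, 981, 1325 and 1223 on the wild type arrays. Knockout replicates 2, 3 and 5 were above all wild type arrays, and the difference was 0.23 ± 0.12 (SE) (limma adjusted p = 0.678). Psmd6 was lowest, at -0.11 ± 0.12 (SE), with signals of 1361, 1239.9, 1778, 1258 and 1668 on the knockout arrays and 1607, 1598, 1732, 1513 and 1404 on the wild type arrays. Knockout replicates 1, 2 and 4 lay below every wild type array and knockout replicate 3 above every one. Psmd14, the enzyme that cuts ubiquitin chains off substrates, differed by 0.0066 ± 0.12 (SE). Psmd11 and Psmd8 were at -0.012 and -0.031, and Psmd7, Psmd12 and Psmd13 at 0.062, 0.14 and 0.14.

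Outside the particles the genes went separate ways. Psmd9, a chaperone of base assembly, had signals of 413, 359, 449, 405 and 375 on the knockout arrays and 377, 269, 363, 338 and 362 on the wild type arrays, a difference of 0.20 ± 0.11 (SE). All 5 knockout arrays were above the wild type mean, and the groups overlapped. Psmd10, a base chaperone also known as gankyrin, was lower, with signals of 229, 232, 263, 247 and 275 on the knockout arrays and 285, 272, 301, 295 and 249.5 on the wild type arrays. All 5 knockout arrays lay below the wild type mean, at a log2 difference of -0.14 ± 0.098 (SE). The limma p was 0.162 unadjusted and 0.736 adjusted. The exact two-sided permutation test, not adjusted for the number of genes, gave p = 0.0476. Psmd5, the remaining assembly factor, differed by -0.0073 ± 0.12 (SE).

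Among the activators, Psme1, a subunit of the interferon-induced cap, had signals of 4698, 4947, 4508, 4084 and 4453 on the knockout arrays and 3519, 5346, 4133, 3422 and 3478 on the wild type arrays. All 5 knockout arrays exceeded the wild type mean, but wild type replicate 2 was the brightest array, and the difference was 0.21 ± 0.13 (SE) (limma adjusted p = 0.709). The probe set shared by Psme2 and Psme2b differed by 0.11 ± 0.090 (SE). Psme4, a nuclear activator of the core, had signals of 1042, 1425, 1237, 1036 and 1244 on the knockout arrays and 921, 1089.8, 1791, 1281 and 955 on the wild type arrays. Wild type replicate 3 was the brightest and wild type replicate 1 the dimmest, and the difference was 0.019 ± 0.16 (SE). Psme3, of the nuclear cap, differed by 0.077 ± 0.15 (SE), and Psma8 by -0.13 ± 0.19 (SE) at a signal too dim to place its level.

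Core and regulatory particle did not separate. The mean of the 14 core genes was higher by 0.10 ± 0.087 (SE over arrays) on the arrays labelled knockout, and that of the 17 regulatory genes by 0.11 ± 0.086. Per array, core minus regulatory differed between the groups by -0.0040 ± 0.052. No p is given for these means, since the genes were chosen with earlier results of the same arrays known. Of the core genes 13 of 14 were higher (median 0.076), and of the regulatory genes 13 of 17 (median 0.14). Without knockout replicate 3 the core mean differed by 0.062 and the regulatory mean by 0.049. Without both arrays labelled replicate 1 the differences were 0.11 for the core, 0.16 for the regulatory particle and -0.054 for core minus regulatory. Of the other subunits described above, Psma5 differed by 0.31, Psmb5 by 0.16, Psmb6 by 0.15, Psmb7 by 0.017, Psmc3 by 0.22, Psmd3 by 0.29, Psmd9 by 0.23 and Psme1 by 0.15. Psma4 was at -0.0095, Psmc6 at -0.092, Psmd1 at 0.078, Psmd6 at -0.083, Psmd10 at -0.11 and Psme4, whose sign changed, at -0.018. Beside Psmb2 and Psme4, the sign changed for Psma3 (-0.0038), Psmb1 (-0.033) and Psmd11 (0.043). In that comparison 10 of the 14 core genes, 14 of the 17 regulatory genes and 27 of the 38 genes were higher, against 48.4% of all probe sets tested and 54.2% of those in the signal range of the particle subunits. The adjusted p was under 0.05 for 0 members, against 0.0663% of all probe sets. The unadjusted p was under 0.05 for 3 (Psmb4, Psmc5 and Psmd2), all higher, against 10.2% of all probe sets on both sides and 4.94% on the higher side alone.

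**Figure D3:**
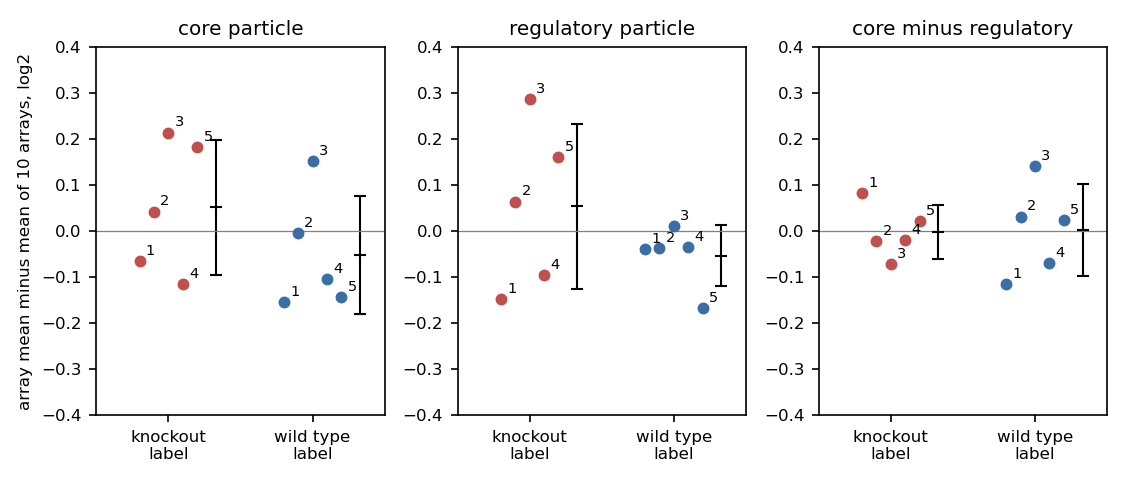
Mean log2(signal + 50) over the 14 core genes, the 17 regulatory genes and their difference, each as the deviation from its own mean over 10 arrays (y axis), with points numbered by replicate label and bars showing mean and SD of each labelled group. Knockout replicates 3 and 5 are high in both particles, and in the right panel the groups lie on top of each other.

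The members moved together from array to array. On knockout replicate 3, 35 of the 38 genes were above their own mean over the 10 arrays, and on knockout replicate 5 37. On knockout replicate 2 there were 24, on knockout replicate 1 12 and on knockout replicate 4 only 7. On wild type replicates 1 to 5 there were 9, 15, 21, 15 and 2. Among the 4598 probe sets of the same signal range, 45.8% to 57.0% were above their own mean on any array. Core and regulatory means deviated to the same side on all 10 arrays. The highest pair was knockout replicate 3, at 0.21 for the core and 0.29 for the regulatory particle. The lowest pair was wild type replicate 5, at -0.14 and -0.17. The spread was wider among knockout arrays for the regulatory particle, with an SD of 0.18 against 0.067, a difference that was not tested.

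**Figure D4:**
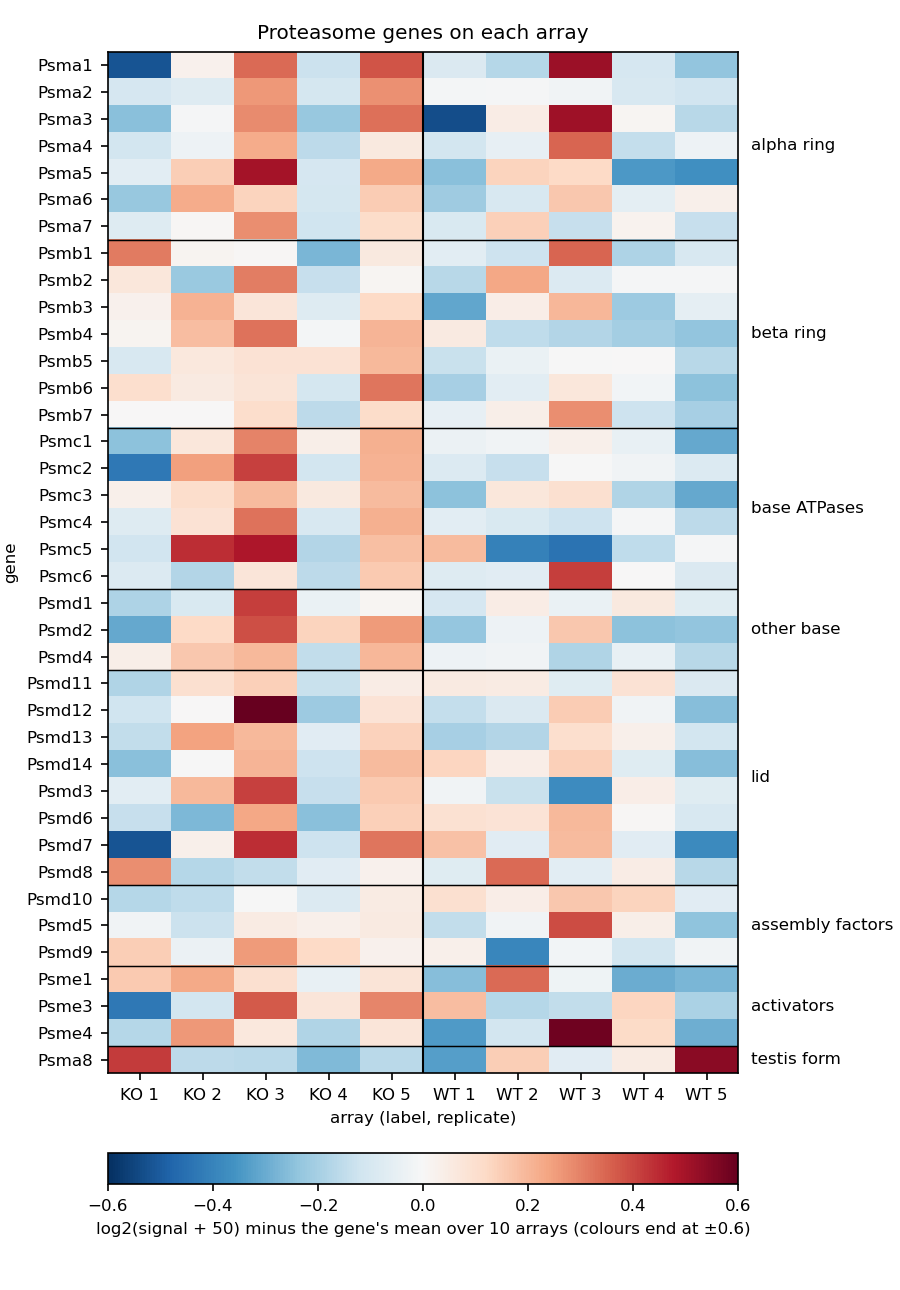
Log2(signal + 50) of each of the 38 genes (rows, grouped by role) on each array (columns), as the deviation from the gene's mean over 10 arrays, red above and blue below. The columns of knockout replicates 3 and 5 are red from the alpha ring to the lid, and those of knockout replicate 4 and wild type replicate 5 are mostly blue.

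Other lists moved along with the same arrays. The immunoproteasome genes Psmb8, Psmb9 and Psmb10 deviated by 0.44 on knockout replicate 3, 0.25 on knockout replicate 5, -0.31 on knockout replicate 4 and -0.30 on wild type replicate 5, in log2 against their mean over the arrays. The mean of the 6 measured enterocyte markers deviated by -0.36, -0.18 and 0.44 on knockout replicates 3 and 5 and wild type replicate 5, by -0.52 on wild type replicate 3 and by 0.048 on knockout replicate 4. On knockout replicate 2 (0.038) and wild type replicate 4 (-0.12) it lay on the same side as the median of the proteasome genes, and on the other 8 arrays on the opposite side. The 5 crypt proliferation markers were highest on knockout replicate 3 (0.42) and wild type replicate 3 (0.33). The summed signal of the enterocyte markers ranged from 75435 to 114555 on knockout arrays and from 72939.5 to 128942 on wild type arrays. That of the crypt markers ranged from 6589 to 10036 and from 6835 to 10060.4. Between the labelled groups, 4 of 4 fat cell markers and 5 of 5 smooth muscle markers were higher on knockout arrays. Their summed signals were, in that order, 1663 to 2757 against 693 to 2729.7 and 16512 to 25572 against 12650.5 to 21452. Without both arrays labelled replicate 1 the smooth muscle marker Acta2 was lower (-0.061) and Tagln was at 0.023. The other smooth muscle markers and all fat cell markers stayed higher. In the other direction, all 4 measured B and plasma cell markers and all 4 T cell markers were lower on knockout arrays, with summed signals of 1318 to 9446 against 5621 to 11743 and 685 to 1443 against 1241 to 1674. Endothelial markers were lower in 4 of 4, 2 of them at an unadjusted p under 0.05, against 7.89% of all probe sets tested. Of the fat cell and the smooth muscle markers 2 each were also under it, on the higher side. The summed endothelial signals did not overlap, at 612 to 777 on knockout arrays against 837 to 928 on wild type arrays. In each of the 4 genes alone the groups overlapped, and 1.55% of all probe sets tested were without overlap. The 3 measured goblet cell markers and the 2 measured Paneth cell markers were also lower, with overlapping sums of 26759.6 to 50698 against 34949.9 to 52034 and 17792 to 23982 against 19041 to 28437. No marker of the enterocyte, crypt, fat cell and smooth muscle lists was at 0 on any array. The fat cell marker Adipoq was nonetheless dim on wild type replicates 1, 3 and 5, at 2.9, 33.9 and 46.6. The part of these lists in the proteasome values was not tested.

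**Figure D5:**
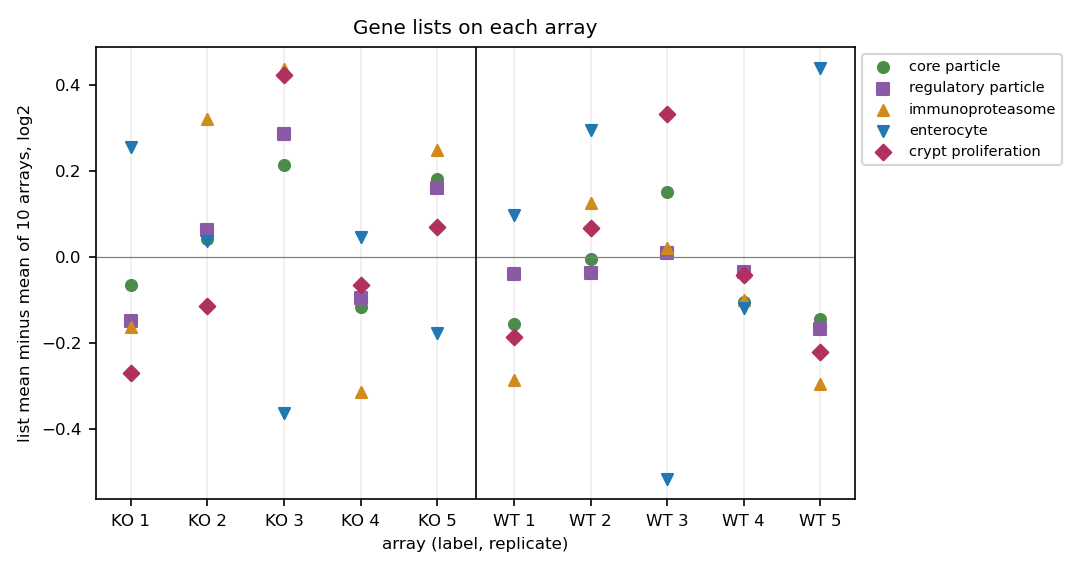
Mean log2(signal + 50) of 5 gene lists on each array (x axis, KO knockout and WT wild type label), as the deviation from the list's mean over 10 arrays (y axis). On knockout replicate 3 and wild type replicate 3 the enterocyte list is low and the crypt list high, and on wild type replicate 5 the enterocyte list is high and both particles are low.

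The size of the difference also varied between wash runs, groups of arrays told apart by gaps in their recorded hybridization times. Within wash runs 1, 2 and 3 the core mean differed by 0.068, 0.026 and 0.33 and the regulatory mean by -0.0044, 0.11 and 0.33. Run 3 held only knockout replicate 5 and wild type replicate 5, the arrays with the most and the fewest members above their mean. Within fluidics module 4, the only module with both labels and with knockout replicate 5 as its knockout array, the differences were 0.24 and 0.20. Psmb4 differed by 0.15, 0.35 and 0.44 within the runs and Psmc3 by 0.16, 0.17 and 0.50. Both kept their sign in all 3 runs, but they were named for their low p over these same 10 arrays, so this is no separate test. Other members, Psma5 and Psmc5 among them, also kept their sign, and others, such as Psma4, did not.

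Some of the genes had a second reading. Beyond the chosen probe sets, 20 others of 16 genes passed the filter. In 12 of them the knockout group was above wild type and in 8 below, at a median log2 difference of 0.015. They had the sign of the chosen probe set in 13 cases and the opposite sign in 7, and the median gap between readings of a gene was 0.084. For Psmc2 the other probe set had the higher difference, 0.30 ± 0.11 (SE) against 0.13 ± 0.14 (SE). The dimmer probe set of Psmb4 had signals of 284, 1209, 1217, 1001 and 1291 on the arrays labelled knockout replicates 1 to 5 and 992, 977, 874, 868 and 750.0 on those labelled wild type. Knockout replicate 1 was far below every other array and the other 4 knockout arrays were above all wild type arrays. The difference was 0.0097 ± 0.31 (SE) with all arrays and 0.42 without both arrays labelled replicate 1. For Psma5 the dimmer probe set gave 0.014 ± 0.15 (SE), against the 0.29 of the brighter one. Psma6 changed sign, from 0.071 ± 0.11 (SE) on the chosen probe set to -0.20 ± 0.14 (SE) and -0.12 ± 0.17 (SE) on the others past the filter. The chosen probe sets of Psma6, Psmc2, Psmd11 and Psme4 are of types that can share probes with other sequences.

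Genes that serve the proteasome without being members were also read, from a list chosen with earlier results known. Of its 37 genes 28 had a probe set of their own, and of these 23 were higher and 5 lower, with a median of 0.068. None reached the limma threshold (0 at an adjusted p under 0.05), and 3 of the 28 were under 0.05 unadjusted, against 7.89% of all probe sets tested. All 3 were higher, and on the higher side alone the share of all probe sets was 3.65%. Ubqln4, a shuttle that carries ubiquitinated proteins to the proteasome, had signals of 569.7, 545, 527, 558 and 526 on the knockout arrays and 342, 378, 406, 485 and 309 on the wild type arrays. Every knockout array was above every wild type array, as for 0.766% of all probe sets tested, by a difference of 0.47 ± 0.11 (SE) (limma adjusted p = 0.441; exact permutation p = 0.00794, the smallest that 5 against 5 arrays allow), and 0.42 without both arrays labelled replicate 1. Zfand2a, a stress-induced zinc finger protein that binds the regulatory particle, had signals of 264, 244, 185, 354 and 291 on the knockout arrays and 274, 117, 168, 148 and 167 on the wild type arrays. The groups overlapped through wild type replicate 1, and the difference was 0.51 ± 0.18 (SE) (adjusted p = 0.511 in limma), or 0.65 without both arrays labelled replicate 1. Psmb10, a cutting subunit of the immunoproteasome, had signals of 6286, 6586, 6205, 5561 and 6285 on the knockout arrays and 5179.8, 5691, 5144, 5678 and 5201 on the wild type arrays. Of the 5 knockout arrays 4 were above all wild type arrays, by 0.20 ± 0.087 (SE), or 0.18 without both arrays labelled replicate 1. Psmb8 and Psmb9, the other immunoproteasome subunits, differed by 0.20 ± 0.20 (SE) and 0.24 ± 0.21 (SE). The lower genes of lowest p were Zfand5, a zinc finger protein that activates the proteasome, at -0.19 ± 0.099 (SE), and Ngly1, which processes the transcription factor encoded by Nfe2l1, at -0.14 ± 0.13 (SE). Nfe2l1, the factor that raises proteasome gene transcription when proteasomes are short, differed by 0.022 ± 0.10 (SE), and Nfe2l2, its relative in the antioxidant response, by -0.10 ± 0.12 (SE).

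The promoters of the members were read because Klf9 and its relatives bind GC-rich boxes. RefSeq promoter entries (build GRCm38.p6) matched 31 of the 38 genes, and the 250 bases before the start of each were searched on both strands. The GC box GGGCGG was found in 19 of the 31 (61.3%), and in 32.9% of the 27025 genes of the table and 42.7% of its 17491 protein-coding genes. The CACCC box, also bound by this family, was in 10 (32.3%, against 51.3% of all and 53.2% of protein-coding genes). The core letters of the ETS site, CCGGAA, were in 14 (45.2%, against 12.2% and 15.2%). The CCAAT box was in 12 (38.7%, against 34.5% of all genes) and the antioxidant response element core TGANNNNGC in 10 (32.3%, against 35.1%). A CACCC match can overlap a GC box, and a match of letters is a description, not a bound site.

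The 120 bases before the start are shown for the particle subunits at both ends of the range of differences that have an entry, the 4 highest (Psmc5, Psmb4, Psma5 and Psmd2) and the 4 lowest (Psmd6, Psmc6, Psmd8 and Psmd11), so that their GC boxes, in capitals on either strand, can be set beside their values.
Psmc5, GRCm38.p6 chr11:106256065-106256184, plus strand: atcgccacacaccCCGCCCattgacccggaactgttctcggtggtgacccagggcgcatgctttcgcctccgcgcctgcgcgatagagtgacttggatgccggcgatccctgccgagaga
Psmb4, GRCm38.p6 chr3:94886959-94887078, minus strand: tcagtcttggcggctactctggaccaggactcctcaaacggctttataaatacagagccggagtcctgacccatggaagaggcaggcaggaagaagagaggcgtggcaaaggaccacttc
Psma5, GRCm38.p6 chr3:108256806-108256925, plus strand: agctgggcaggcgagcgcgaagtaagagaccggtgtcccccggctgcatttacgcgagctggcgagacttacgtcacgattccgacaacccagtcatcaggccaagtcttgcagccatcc
Psmd2, GRCm38.p6 chr16:20651532-20651651, plus strand: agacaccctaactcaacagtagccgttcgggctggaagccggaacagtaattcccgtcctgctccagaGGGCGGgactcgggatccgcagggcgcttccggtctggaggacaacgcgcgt
Psmd6, GRCm38.p6 chr14:14120946-14121065, minus strand: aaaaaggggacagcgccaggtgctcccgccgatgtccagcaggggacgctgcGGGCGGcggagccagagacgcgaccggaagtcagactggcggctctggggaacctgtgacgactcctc
Psmc6, GRCm38.p6 chr14:45329704-45329823, plus strand: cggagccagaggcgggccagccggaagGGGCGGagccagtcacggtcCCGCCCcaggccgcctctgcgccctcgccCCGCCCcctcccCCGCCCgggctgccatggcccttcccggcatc
Psmd8, GRCm38.p6 chr7:29180674-29180793, minus strand: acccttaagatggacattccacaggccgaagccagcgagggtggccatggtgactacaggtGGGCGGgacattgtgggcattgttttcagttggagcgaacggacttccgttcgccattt
Psmd11, GRCm38.p6 chr11:80428495-80428614, plus strand: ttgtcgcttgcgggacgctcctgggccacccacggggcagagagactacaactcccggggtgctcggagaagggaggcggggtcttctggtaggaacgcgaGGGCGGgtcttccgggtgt

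In the stretch shown Psmb4 and Psma5, with log2 differences of 0.29 and 0.29, had 0 GC boxes. Psmc6, at -0.074, had 4, and Psmc5, Psmd2, Psmd6, Psmd8 and Psmd11 had 1 each. Over the 250 bases, the 19 members with a GC box had a median log2 difference of 0.036 (range -0.14 to 0.33), 12 of them higher. The 12 without one had a median of 0.14 (range 0.046 to 0.29), 12 of them higher. Without both arrays labelled replicate 1 the medians were 0.10 and 0.19. The ranges overlapped, the split was made after the values were seen, and the difference was not tested.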

How the data were processed

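RNA from 10 jejuna was hybridised to Affymetrix mouse 430A arrays and quantified with MAS 5.0, per the design text. The deposited values are intensity, a linear signal per probe set on a common scale, and no source used here states the authors' scaling step. Each array was rescaled to a 2% trimmed mean of 500, and log2(signal + 50) was taken, which understates the change of dim probe sets. Of 22690 probe sets, 13580 were tested after 64 control probe sets and those with a mean at or below the 40th percentile (a signal of 123) were left out, keeping all members and Klf9. limma 3.58.1 in R 4.3.3 compared 5 arrays with 5, with a trended prior and p-values adjusted by Benjamini-Hochberg over the 13580. The script was tested on simulated data. Exact two-sided permutation tests of single probe sets ran over all 252 splits, whose smallest p is 0.00794. Gene symbols came from the platform annotation (20380 probe sets with 1 symbol, 691 with several, 1555 with none), and 20351 of the 20380 matched RefSeq.

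Groups come from the sample titles. Wash runs and fluidics modules come from the instrument records, a new run starting after a gap of over 30 minutes. The members, the role, pathway and marker lists and the 2 arrays left out together were chosen with earlier results of these data known. Members named with every array are those with an unadjusted p under 0.05, the cutting subunits, Psme1 and the highest and lowest of each role list. Psme2 was in that rule but has no probe set of its own. From the other pathway genes, those with an unadjusted p under 0.05 and those of lowest p in each direction are named. Alternatives changed the offset, filter, scaling, normalization, prior, weights, blocks and arrays used.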

Additional observations from a re-analysis of the deposited data

Results flagged for a closer look

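In 5 of the 68 groups of 5 arrays tested, 1 array lay far from the other arrays of its group, the gap to its nearest neighbour exceeding Dixon's 95% critical value of 0.71 of the group's range. Chance gives about 1 in 20 such groups. All 5 were in the group labelled wild type, and values are on the log2(signal + 50) scale. Psmb4 was high on wild type replicate 1, at 11.94 against 11.65 to 11.73 on the other wild type arrays, a gap of 0.714 of the group's range. This array is also the wild type array on which Klf9 was dim. Wild type replicate 3 was high for Psma4, at 12.33 against 11.84 to 11.95 on the other wild type arrays, a gap of 0.767 of the group's range. The same array was high for Psmc6, at 11.12 against 10.62 to 10.71 on the other wild type arrays, a gap of 0.828 of the group's range. Wild type replicate 5 was low for the mean of the regulatory particle, at 10.44 against 10.57 to 10.62 on the other wild type arrays, a gap of 0.72 of the group's range. It was also low for the mean of the lid, at 10.33 against 10.51 to 10.54 on the other wild type arrays, a gap of 0.85 of the group's range. The lid is a subset of the regulatory particle, so these last 2 are not separate observations.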

How the results depend on the processing

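The number of members with an adjusted p under 0.05 in limma was 0 as reported and under all 25 alternatives, and the number with an unadjusted p under 0.05 was 2. That latter count was 1 with quantile normalization, with cyclic loess, without the trend in eBayes and with wash run as a block. It was 5 with array weights. With fluidics module as a block the comparison rests on module 4 and its 1 knockout array, so its count is left out. Leaving out 1 array gave between 1 and 6: 6 without knockout replicate 1, 5 without knockout replicate 4, 4 without wild type replicate 2 or 3, and 1 without any of knockout replicates 2, 3 and 5 and wild type replicates 4 and 5. Over the whole array the number of probe sets with an adjusted p under 0.05 was 0, and 3 with array weights and 9 without both arrays labelled replicate 1. Leaving out 1 array gave between 0 and 5, with 5 without knockout replicate 1, 3 without knockout replicate 5 and 1 without wild type replicate 1. Between 24 and 32 members were higher under these alternatives. The module block apart, the core mean difference kept its sign, at 0.062 to 0.15, as did the regulatory mean, at 0.042 to 0.16. In the module block, with its 1 knockout array, these means differed by 0.24 and 0.20. Core minus regulatory lay between -0.054 and 0.058. The assembly factors differed by 0.018 as a mean and by 0.20 as a median per array, and the mean fell below 0 without knockout replicate 3 or wild type replicate 2 or 5 (lowest -0.011). No scaling moved the median of all probe sets by more than 0.0089.

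Some uncalled differences changed sign. Only fluidics module 4 holds both labels, so the module block compares knockout replicate 5 with wild type replicates 2 and 4 alone. Psma4 was then at 0.15, Psmb2 at -0.10, Psmc6 at 0.19, Psmd1 at -0.038, Psmd6 at 0.098, Zfand5 at 0.0089 and Ngly1 at 0.030. With quantile normalization Psma4 was at 0.013 and Psmb2 at -0.014. With cyclic loess Psmb2 was at -0.0061 and Psme4 at -0.0052, and with array weights Psmb2 was at -0.048. Without both arrays labelled replicate 1 Psmb2 was at -0.046 and Psme4 at -0.018, while Klf9 passed the threshold at -1.26 (limma adjusted p = 0.0147). Klf9's own signals set these 2 arrays apart, so its larger difference without them follows from the choice and is no independent test. Leaving out 1 array gave -0.023 to 0.096 for Psmb7 (sign changed without knockout replicate 5 or wild type replicate 4 or 5), -0.063 to 0.079 for Psma4 (knockout replicate 1 or 4 or wild type replicate 3) and -0.066 to 0.070 for Psmb2 (replicate 1 or 3 of either label). It gave -0.12 to 0.020 for Psmc6 (wild type replicate 3), -0.053 to 0.098 for Psmd1 (knockout replicate 3) and -0.064 to 0.17 for Psme4 (knockout replicate 2 or wild type replicate 1, 2 or 5). The cause of these changes was not tested. The filter at the 60th percentile left no value for Zfand2a.

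Both groups number their arrays 1 to 5. The correlations of same-numbered arrays' deviations from their group means were 0.18, 0.032, 0.28, 0.12 and -0.12, so the numbers were not taken to pair the arrays. With the replicate block 0 members had an adjusted p under 0.05 and 2 an unadjusted p under 0.05, 30 were higher, and no other call changed. In that block fit Psmb4 was at 0.29 with a limma adjusted p of 0.487. A number of 5 arrays per group limits the precision, with standard errors of 0.091 to 0.19 (log2) over the members, and a probe set near the floor, such as that of Psma8, gives no level.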
